A study of Mus musculus with 2 samples.

Results

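Start sites of long noncoding RNA (lncRNA) genes that lay away from any protein-coding start had 293 open chromatin intervals in mouse erythroblasts. The rule looked at the summit, so another start of the same gene could lie beside a protein-coding start. An interval was taken when it was in the peak list of replicate 1 on chromosomes 1 to 19 and overlapped an interval of replicate 2. Its strongest summit, the summit with the highest enrichment, had to lie within 1 kb of an annotated start of a lncRNA gene and over 2 kb from every protein-coding start. The 5 gene types of GENCODE M21 that counted as lncRNA were lincRNA, antisense, processed transcript, sense intronic and bidirectional promoter lncRNA. The 293 were 1.86% of the 15786 shared intervals (95% Wilson interval, counting error only, 1.66% to 2.08%). They lay nearest to 275 different lncRNA genes, 18 of which had 2 intervals each.

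The study measured open chromatin by ATAC-seq, in which a transposase cuts and tags accessible DNA. All libraries came from 1 group of erythroblasts, cells that still have a nucleus and mature into red cells. The mice were male C57BL/6J animals, 5 to 6 weeks old, and 50000 cells went into each of 2 replicates. Both replicates carry the same donor identifier in the labels, so their independence is not established, and there was no second condition to test against. The peak lists held 17334 intervals for replicate 1 and 18374 for replicate 2 on chromosomes 1 to 19, without read counts, so the sequencing depth is unknown.

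A lncRNA is a long transcript that is not translated into protein. Some, such as Malat1 and Neat1, act in the nucleus. Others host small RNAs in their introns, and for several the act of transcription or the promoter DNA, rather than the RNA, acts on a neighbouring gene. Promoters of protein-coding genes are often rich in the dinucleotide CpG and in binding motifs of SP, KLF, ETS and NFY proteins. In erythroid cells many distal enhancers carry the GATA motif, which GATA1, the main erythroid regulator, binds, often in a complex with TAL1 at a nearby E-box.

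The 3 most enriched members by mean percentile over both lists were near-identical copies of each other on chromosome 17, and their reference sequences (GRCm38, from RefSeq) are shown because reads from copies this alike can be hard to place. Each is given 5′ to 3′ on the strand of its lncRNA, over the 75 bases to each side of the summit of Gm5165 and the aligned bases of the others. Capitals mark bases that differ between a copy and Gm5165.
Gm5165 (chr17:17234716-17234866, plus strand): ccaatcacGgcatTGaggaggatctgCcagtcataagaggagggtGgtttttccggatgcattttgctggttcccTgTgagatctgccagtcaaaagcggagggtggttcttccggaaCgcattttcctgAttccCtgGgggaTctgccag
Gm6712 (chr17:17294280-17294430, plus strand): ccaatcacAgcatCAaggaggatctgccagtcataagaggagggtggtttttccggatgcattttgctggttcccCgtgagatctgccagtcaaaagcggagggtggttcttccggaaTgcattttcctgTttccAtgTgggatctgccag
BC002059 (chr17:16951399-16951547, plus strand): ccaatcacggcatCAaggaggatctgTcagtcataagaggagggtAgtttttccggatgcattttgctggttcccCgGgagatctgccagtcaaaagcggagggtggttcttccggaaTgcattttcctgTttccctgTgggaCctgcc
Over these windows Gm6712 matched Gm5165 at 94.7% of aligned bases, with 8 mismatches, and BC002059 matched it at 93.3%, with 10 mismatches. Each of the 3 windows centred on its own summit held 3 copies of the ETS motif CCGGAA and 1 NFY motif CCAAT, on either strand, and no GATA motif, where overlapping matches on opposite strands were counted separately. All 3 summits lay upstream of the lncRNA start, by 81 bp, 108 bp and 87 bp, outside any protein-coding gene.

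GATA motifs were sought within 75 bp of the summit, on either strand, as AGATAA or AGATAG, or with T as the first base, TGATAA or else TGATAG. Of the members with the most such motifs, 4 are shown to let the spacing of the motifs be seen. Capitals mark the motifs.
2610027K06Rik (chr11:85804148-85804298, minus strand): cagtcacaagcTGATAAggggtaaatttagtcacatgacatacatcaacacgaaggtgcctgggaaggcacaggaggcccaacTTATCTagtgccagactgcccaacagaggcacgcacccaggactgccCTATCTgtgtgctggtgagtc
Gm14453 (chr2:173035131-173035281, minus strand): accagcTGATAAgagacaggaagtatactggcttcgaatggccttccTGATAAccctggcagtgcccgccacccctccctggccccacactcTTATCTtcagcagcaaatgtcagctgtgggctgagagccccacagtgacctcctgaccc
Kcnq1ot1 (chr7:143296533-143296683, minus strand): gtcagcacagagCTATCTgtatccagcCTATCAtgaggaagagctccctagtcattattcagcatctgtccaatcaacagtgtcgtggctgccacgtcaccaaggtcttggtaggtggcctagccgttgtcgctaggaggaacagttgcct
Gm10371 (chr14:47116127-47116277, minus strand): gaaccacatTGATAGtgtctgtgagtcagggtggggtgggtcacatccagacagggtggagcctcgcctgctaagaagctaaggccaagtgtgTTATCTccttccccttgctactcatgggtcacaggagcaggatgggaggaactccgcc
The window of 2610027K06Rik held 3 motifs, as did that of Gm14453, while Kcnq1ot1 and Gm10371 held 2 each. Enrichment differed widely among these windows: it was 12.6-fold in replicate 1 and 12.8-fold in replicate 2 at Kcnq1ot1, and 2.98-fold and 2.96-fold at Gm14453. The 4 lncRNAs are one that runs opposite to Bcas3 within it (2610027K06Rik), one near Rbm38, which encodes an RNA-binding protein (Gm14453), the imprinted antisense transcript of Kcnq1 (Kcnq1ot1) and one near Samd4 (Gm10371).

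Other members had a CpG-rich window with SP or NFY motifs. Lockd, Mir17hg and Dancr are shown as CpG-rich promoters of well-studied lncRNAs, Dancr having been chosen after its value was seen. In Lockd and Mir17hg capitals mark the SP motif GGGCGG or its reverse complement, and in Dancr the NFY motif CCAAT or its reverse complement.
Lockd (chr6:134928716-134928866, plus strand): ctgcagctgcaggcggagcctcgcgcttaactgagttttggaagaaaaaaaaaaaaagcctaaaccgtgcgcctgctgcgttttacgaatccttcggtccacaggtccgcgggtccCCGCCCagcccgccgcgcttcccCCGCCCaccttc
Mir17hg (chr14:115042197-115042347, plus strand): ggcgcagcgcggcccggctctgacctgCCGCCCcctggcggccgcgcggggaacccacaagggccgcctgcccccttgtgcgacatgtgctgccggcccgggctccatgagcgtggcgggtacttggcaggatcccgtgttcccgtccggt
Dancr (chr5:74092885-74093035, plus strand): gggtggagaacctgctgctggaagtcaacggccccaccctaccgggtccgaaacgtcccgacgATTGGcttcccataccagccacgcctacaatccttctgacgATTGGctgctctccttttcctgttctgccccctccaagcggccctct
Lockd had 2 SP motifs and Mir17hg had 1, and Dancr had none but held 2 NFY motifs. None of these 3 windows contained a GATA motif. Enrichment at Dancr was 16.2-fold in replicate 1 and 17.1-fold in replicate 2, against 7.59-fold and 9.02-fold at Mir17hg and 4.51-fold and 4.77-fold at Lockd. These are values of the authors' peak caller, fold over background at the summit.

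The cell type label was compared with the start sites of marker genes, counting a gene as open when a shared interval had its strongest summit within 1 kb of a start. All 11 erythroid markers were open, among them Gata1, Klf1 and Slc4a1. Of the markers of other cells, 0 of 5 B cell, 1 of 5 T cell (Lck), 0 of 5 granulocyte and monocyte and 2 of 5 megakaryocyte genes (Itga2b and Gp1ba) were open. Among all protein-coding genes counted, 41.9% had an open start, so 2 of 5 does not set the megakaryocyte markers apart. The noncoding label of the members rests on GENCODE. RefSeq called the nearest gene a lncRNA for 180 members, a protein-coding gene for 14, and a pseudogene, transcribed or not, for 8. The other 91 had no match by name or synonym. Gm5165 and Gm6712, the 2 most enriched members, were among the 14. A RefSeq mRNA start of any kind lay within 2 kb of the summit of 27 members, and one from a curated record of 15.

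Enrichment of the standalone lncRNA promoters spanned nearly all percentiles of the lists but did not reach the highest folds, which were 38.5 and 39.0 over all shared intervals in replicates 1 and 2. The median of members was 7.97-fold in replicate 1, with a range of 2.48 to 19.2, and 8.29-fold in replicate 2, with a range of 2.36 to 22.2 (mean of the 2 medians 8.13 ± 0.222, SD, n = 2). Shared intervals at protein-coding starts had medians of 9.12 and 9.32, those over 1 kb from any start 7.10 and 7.24, and all shared intervals 8.10 and 8.28. Members therefore sat between protein-coding promoters and distal intervals in both replicates, and close to the median of all. Since the lists give no common scale, each value was also turned into a percentile, its rank within its own list with 100 at the top. Median percentiles were 51.9 and 56.3 for members, 64.7 and 67.0 for protein-coding starts and 40.5 and 43.5 for distal intervals. These differences between classes are descriptions of 1 group and were not tested.

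**Figure D1:**
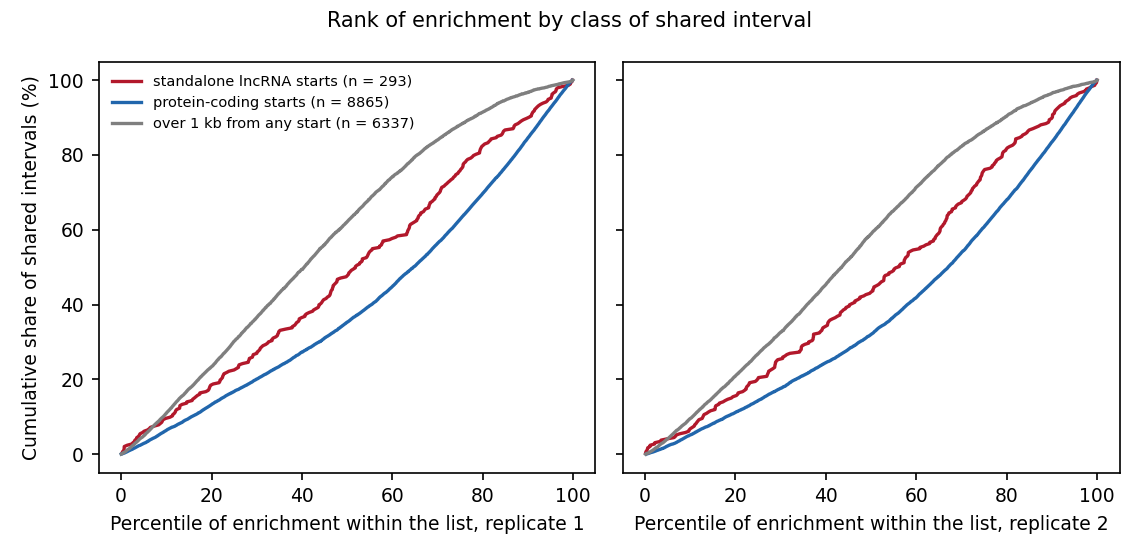
Cumulative share of shared intervals (percent, y axis) against the percentile of enrichment within the list of replicate 1 (left) and replicate 2 (right). The curve of the 293 standalone lncRNA promoters runs between those of the 8865 intervals at protein-coding starts and the 6337 over 1 kb from any start through most of the range in both replicates.

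The strongest promoters formed a smaller share of members than of protein-coding promoters. Of the members, 16.4% had a percentile of 80 or more in both lists (12.6% to 21.1%), against 27.7% of intervals at protein-coding starts, 7.10% of distal intervals and 3007 of all 15786 shared intervals, a share within the interval of the members. At the weak end, 13.3% of members stood under percentile 20 in both lists (9.89% to 17.7%), against 10.2% at protein-coding starts, 18.7% of distal intervals and 13.9% of all. Member intervals were also narrower than protein-coding ones. Their median width was 628 bp in replicate 1 and 633 bp in replicate 2, against 831 bp and 832 bp at protein-coding starts and 506 bp and 517 bp at distal intervals. More than 1 summit was listed in 62.5% of members (56.8% to 67.8%) against 73.9% of protein-coding intervals, 46.7% of distal intervals and 62.2% of all.

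**Figure D2:**
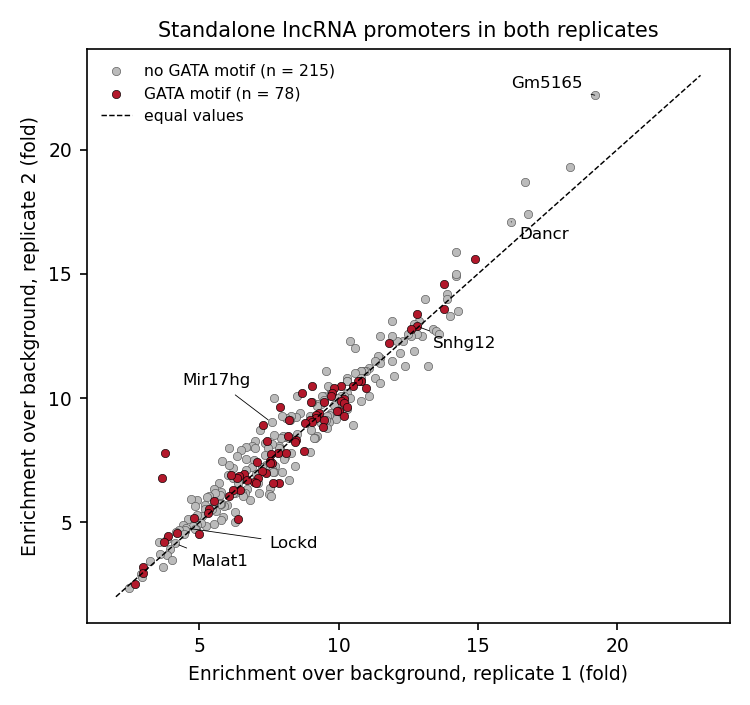
Enrichment over background (fold) of each of the 293 members in replicate 1 (x axis) and replicate 2 (y axis), with the 78 members that hold a GATA motif in red and the line of equal values dashed. Most points lie near the line, Gm5165 is highest at 19.2 and 22.2, and 2 red points, at 3.75 and 7.77 and at 3.67 and 6.79, stand far above the line.

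Replicates ranked most members alike. The percentile of a member differed between replicates by a median of 3.84 points, beside 3.92 for all shared intervals, and 239 of 293 differed by at most 10 points. Enrichment was higher in replicate 2 for 171 members (58.4%), a share near the 56.9% of all shared intervals. The strongest summit moved by a median of 6.00 bp between replicates, and by over 100 bp at 11 members. Of the members, 5 differed by over 20 points, all of them higher in replicate 2. The counts at 10 points, 100 bp and 20 points have no match over all shared intervals here, so they do not set members apart. The widest gaps were at the downstream interval of Gm31452, with 3.75-fold in replicate 1 and 7.77-fold in replicate 2, and at that of A930006K02Rik, with 3.67 and 6.79. Each of these replicate 1 intervals overlapped a long replicate 2 interval, 1609 bp and 1146 bp, that also spanned the neighbouring member of the same gene. The replicate 2 value is therefore that of the joint interval, and 4 members in all shared a replicate 2 interval in this way. The other 3 members were Gm20442, at percentiles 26.0 and 52.9 in replicates 1 and 2, Gm14221, at 47.9 and 73.6, and A830008E24Rik, at 22.7 and 46.5.

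The position rule was also applied to each replicate before requiring overlap. It chose 322 intervals of replicate 1, of which 91.0% overlapped replicate 2, where 91.1% of all replicate 1 intervals did so. From the side of replicate 2 it chose 352 intervals, of which 84.7% overlapped replicate 1, where 86.3% of all replicate 2 intervals did so. Of the intervals found in 1 replicate alone, 28 from replicate 1 and 44 from replicate 2 were in the less strict list of the other replicate. The remaining 1 from replicate 1, at Bcas3os1 with 3.90-fold, and 10 from replicate 2 were in neither list of the other. This split was not made for all intervals found in 1 replicate alone, so it does not set these promoters apart. Absence from a list is not absence of open chromatin, because the depth behind each list is unknown.

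Gm5165 (ENSMUSG00000116802.1) was the most enriched member, at chr17:17234375-17235027 (mm10), with 19.2-fold in replicate 1 and 22.2-fold in replicate 2, ranks 21 and 13 in the full lists. Gm6712 followed at chr17:17294008-17294504, with 18.3 and 19.3, and BC002059 at chr17:16951286-16951634, with 16.7 and 18.7. The sources used here do not say how reads that fit several places were treated, so the values of these 3 copies are uncertain. In all, 11 members aligned with another member over 200 bp or more. They included 9330159M07Rik and 9430037G07Rik on chromosome 9, which were 95.7% identical and had 12.9 and 13.1 and 12.6 and 12.5 in replicates 1 and 2, and Gm20939 and Gm32856 on different chromosomes, which were 95.5% identical and had 13.0 and 12.5 and 12.1 and 12.3. Not all of these pairs were near-identical, and E430024I08Rik and Gm1976 matched at 77.8%. Of the 11, Gm1976 alone lay under percentile 50, with 5.78-fold and 6.21-fold.

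Behind the 3 copies came members that aligned with no other member over 200 bp or more. Copies elsewhere in the genome were not sought. D230017M19Rik, whose summit lay 31.6 kb from the start of Mreg, had 16.8-fold in replicate 1 and 17.4-fold in replicate 2. Dancr, a small nucleolar RNA host gene known for holding back differentiation of progenitor cells, had 16.2 and 17.1 at chr5:74092563-74093555, with 3 summits. By the deposited −log10 p, Dancr stood above Gm5165, with 132 and 149 against 78.5 and 97.6 for Gm5165, so the order depends on which deposited value is used. Gm10433 had 14.9 and 15.6, C030034I22Rik 14.2 and 15.9, and Gm26901 14.2 and 14.9. Gm20033, with its summit 88.5 kb from Klf3, had 13.8 and 14.6. Its start used here lay 89668 bp from the outermost 5′ end of the gene. Gm13565, 29.0 kb from Dpp4, stood at percentiles 96.1 and 97.6. Of these 10 most enriched members, 5 were CpG-rich, beside 35.5% of all members and 47.6% of all shared intervals. A GATA motif was held by 2 (Gm10433 and Gm20033), beside 26.6% and 27.0%. The 10 include the 3 copies, so they are not 10 separate sequences.

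At the other end, the 5 lowest members stood under percentile 1 in both lists. Frmd8os had 2 of them. Its interval at chr19:5845348-5846134, which also reached a start of Neat1, had 2.48-fold in replicate 1 and 2.36-fold in replicate 2, and the other had 2.95 and 2.80. Gm32281 had 2.68 and 2.51, Gm20443 2.90 and 2.91, and Gm14453 2.98 and 2.96. Of these 5, the Frmd8os interval beside Neat1 was CpG-rich, and Gm32281 and Gm14453 held 2 and 3 GATA motifs. Low enrichment did not always go with a narrow interval: that Frmd8os interval was 787 bp wide with 4 summits, against 244 bp at its neighbour.

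The widest members were of middling to high enrichment. Gm12915, within and opposite to Inpp5b, spanned 1791 bp in replicate 1 and 1826 bp in replicate 2, with 5 summits and 10.3-fold and 10.7-fold. Gm49024 spanned 1790 bp and 1915 bp at 7.53-fold and 7.37-fold, Gm6410 1602 bp and 1499 bp at 11.9-fold and 12.5-fold, 4930412M03Rik 1576 bp and 1813 bp at 10.8-fold and 9.90-fold, and 4833417C18Rik 1570 bp and 1606 bp at 9.23-fold and 8.46-fold. All of these were CpG-rich except Gm49024.

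Summits lay more often upstream than downstream of the annotated starts. Their closeness to a start is in part set by the rule, which took summits within 1 kb of the nearest one. Distances were not set beside those of other classes. The median distance was 107 bp, with 145 members within 100 bp and 229 within 500 bp. The summit was upstream of the start in 199 members, downstream in 93, and on the start base in 1 (Gm40608), with a median signed position of -47.0 bp. The start used was at the outermost 5′ end of the gene, to within 100 bp, in 250 members, and over 1 kb inside it in 31. Whether the outermost 5′ end of the genes of these 31 lay near a protein-coding start was not examined. Distance went with composition: 46.2% of members within 100 bp of a start were CpG-rich, 33.3% of those beyond that up to 500 bp and 14.1% of the 64 farther away. Median enrichment was 8.49 and 8.70 within 100 bp and 7.27 and 7.58 over 500 bp.

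**Figure D3:**
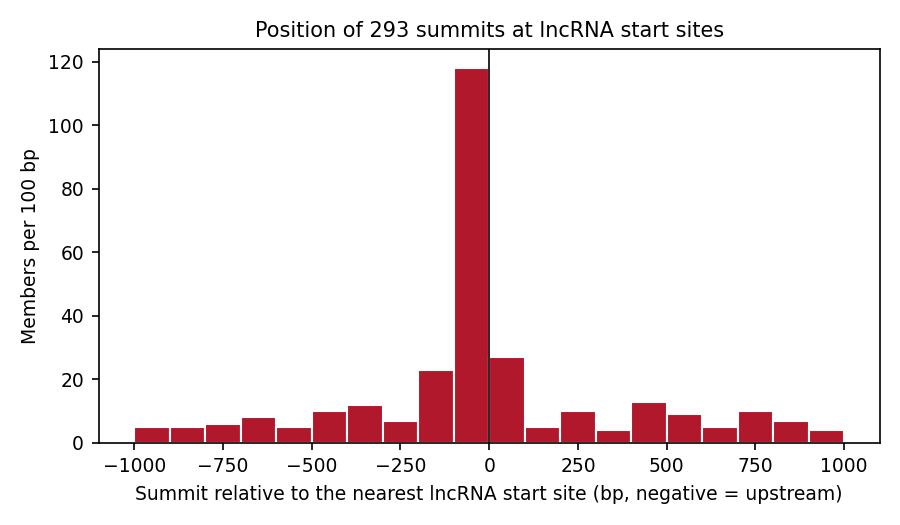
Number of members per 100 bp (y axis) by position of the summit relative to the nearest lncRNA start (bp, negative upstream). The tallest bar lies just upstream of the start, and 199 of 293 summits lie upstream.

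The members next to the distance limits showed no common level. Just inside 1 kb, 0610025J13Rik at 979 bp had 9.35-fold in replicate 1 and 8.98-fold in replicate 2, Gm32281 at 972 bp had 2.68 and 2.51, and Gm37584 at 942 bp had 7.40 and 7.32. Just outside it were intervals near Gm15849 at 1010 bp (5.51 and 6.17), Gm48765 at 1011 bp (16.2 and 13.3) and Gm28723 at 1018 bp (5.78 and 6.48). Just over 2 kb from a protein-coding start, Gm43904, 2004 bp from Gp9, had 9.19 and 9.34, Gm12976 8.50 and 10.1, and Gm26664 5.24 and 4.85. A RefSeq mRNA start of Gp9 lay 63 bp from the Gm43904 summit, so this interval cannot be told apart from an open Gp9 start, although Gp9 counts above as a megakaryocyte marker not open by its GENCODE starts. Just under it were Gm10603 at 1892 bp from C2cd3 (4.90 and 5.34), Gm15564 (7.19 and 7.17) and Kcnab3os (6.41 and 6.64).

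Fewer standalone lncRNA promoters than protein-coding promoters were CpG-rich. A window was called CpG-rich when the 150 bp to each side of the summit had at least 50% GC and an observed over expected CpG ratio of at least 0.6. This held for 35.5% of members (104 of 293, 30.2% to 41.1%), against 78.2% of intervals at protein-coding starts, 6.00% of distal intervals and 47.6% of all shared intervals. Median GC of members was 55.5% and the median CpG ratio 0.485, against 63.1% and 0.809 at protein-coding starts. CpG-rich members had a median of 9.61-fold in replicate 1 and 9.47-fold in replicate 2 and a median width of 788 bp, against 7.47, 7.46 and 587 bp for the other members. Of the 52 members with a percentile of 80 or more in replicate 1, 57.7% were CpG-rich, against 24.1% of the 54 under percentile 20.

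**Figure D4:**
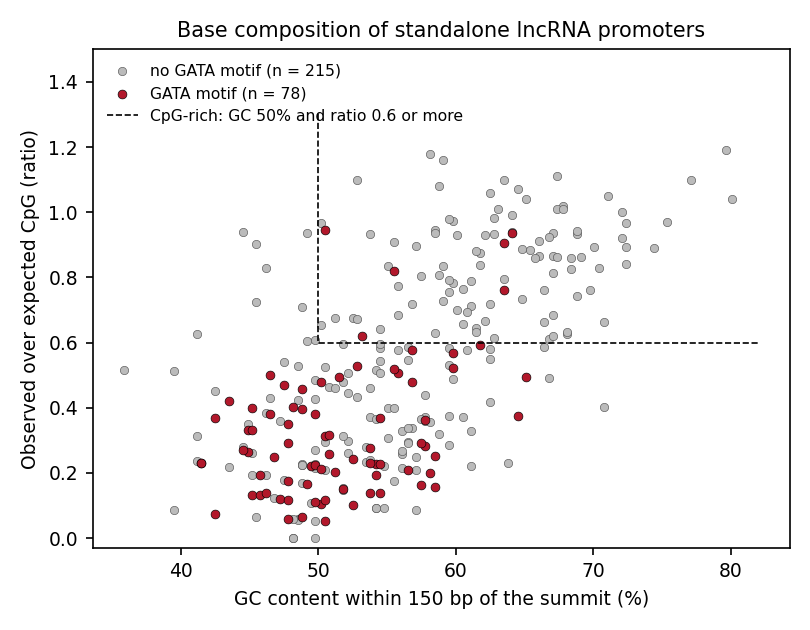
Observed over expected CpG (ratio, y axis) against GC content (percent, x axis) within 150 bp of the summit for 293 members, with members that hold a GATA motif in red. The dashed lines bound the CpG-rich corner, which holds 104 members and 6 of the 78 red points.

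GATA motifs were found in 26.6% of members (78 of 293, 21.9% to 32.0%), beside 27.0% of all shared intervals, so the share of members is close to the background. It stood between the 12.2% at protein-coding starts and the 47.9% at distal intervals. Windows of the same length 1000 bp to each side of the members' summits that overlapped no interval held the motif in 24.2% (20.8% to 28.1%), an interval that overlaps that of the members. Composition split the members: 5.77% of the 104 CpG-rich members held a GATA motif (2.67% to 12.0%) and 38.1% of the 189 others (31.5% to 45.2%). The same split gave 6.60% and 32.2% at protein-coding starts and 12.4% and 50.2% at distal intervals. The 6 CpG-rich members with a GATA motif were Gm10433, Snhg12, 1700066J03Rik, Gm27252, 5830454E08Rik and A930015D03Rik, named after their values were seen. A GATA motif with an E-box CANNTG 7 to 9 bases before it was found in 8 members (2.73%), all outside the CpG-rich windows, and in 2.66% of all shared intervals.

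**Figure D5:**
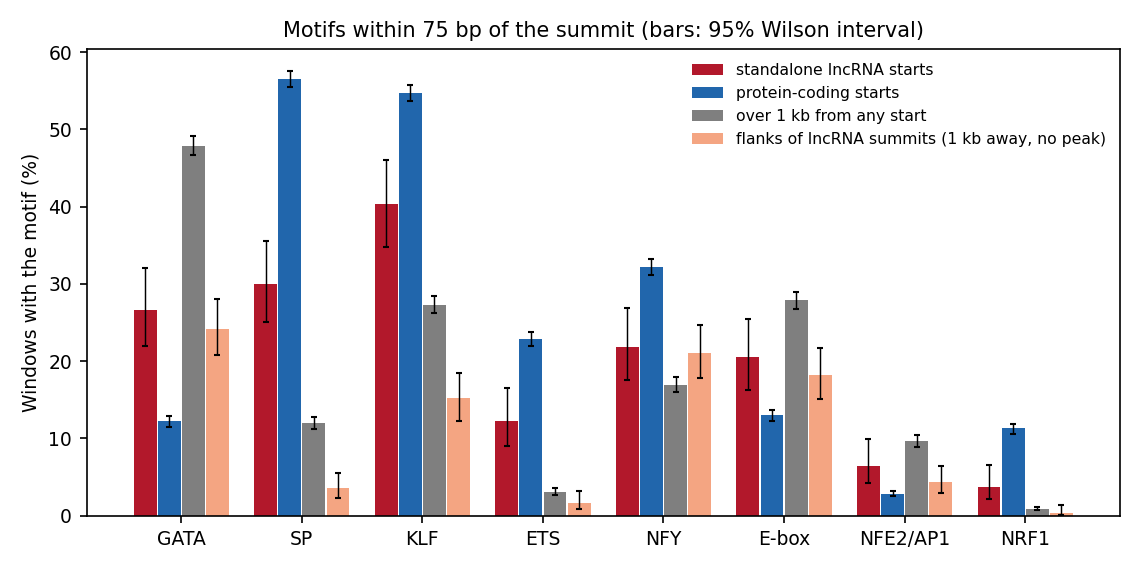
Share of windows (percent, y axis) that hold each motif within 75 bp of the summit, with 95% Wilson intervals, for standalone lncRNA starts, protein-coding starts, intervals over 1 kb from any start and peak-free windows 1000 bp from the lncRNA summits. Members stand between the protein-coding and distal classes for each of the 8 motifs shown, and close to their own flanks for GATA, NFY and E-box.

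Motifs of SP, KLF, ETS and NRF1 were more frequent in members than in their flanks, but no more frequent than in all shared intervals. The SP motif GGGCGG was found in 30.0% of members (25.1% to 35.5%), against 19 of 528 flank windows, 56.5% at protein-coding starts, 12.0% at distal intervals and 37.6% of all shared intervals. It was in 60.6% of CpG-rich members and 13.2% of the others. The KLF motif CCNCNCCC, of the kind that KLF1 binds, was in 40.3% of members, 15.2% of their flanks and 42.9% of all shared intervals. The ETS motif CCGGAA was in 12.3% of members and 1.70% of flanks, and the NRF1 motif GCGCANGCG in 3.75% and 0.379%. Over all shared intervals these 2 shares were 14.4% and 6.80%. By contrast the NFY motif CCAAT was in 21.8% of members and 111 of 528 flank windows, and E-boxes CAGCTG or CAGATG in 20.5% and 18.2%, beside 25.7% and 19.3% of all shared intervals. TATAAA was in 3.75% of members, 8.90% of flanks and 2.39% of all shared intervals. The search does not separate KLF from SP motifs where their letters overlap, and a match does not show that a factor was bound.

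Few standalone lncRNA genes were open. Of 7264 genes of these types with a start over 2 kb from any protein-coding start, 291 had a shared summit within 1 kb of such a start, 4.01% (3.58% to 4.48%). By the same rule 41.9% of protein-coding genes were open (8726 of 20807). Of lncRNA genes whose every start lay within 2 kb of a protein-coding start, 38.9% were open (827 of 2128). A summit counted for these genes can also be that of the protein-coding start, and such cases were not set apart. Among standalone genes the share was 12.0% for processed transcripts (57 of 474, 9.40% to 15.3%), 3.75% for lincRNAs (179 of 4768), 3.06% for antisense genes (53 of 1730) and 0.709% for sense intronic genes (2 of 282). Of the 10 bidirectional promoter genes, 0 were open (0% to 27.8%).

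By type of the nearest gene the members were 180 lincRNA, 60 processed transcript, 51 antisense and 2 sense intronic. Processed transcripts were CpG-rich in 53.3% (40.9% to 65.4%), lincRNAs in 31.7% and antisense genes in 29.4%. GATA motifs were in 43.1% of antisense members (30.5% to 56.7%), 22.8% of lincRNA members (17.3% to 29.4%) and 15 of the 60 processed transcripts (15.8% to 37.2%). Median enrichment ran from 7.82 and 7.85 for antisense through 8.02 and 8.29 for lincRNA to 8.33 and 8.58 for processed transcripts. The 2 sense intronic members were 4930405O22Rik in Fbxl17, with 9.48-fold and 9.92-fold, and D430018E03Rik in Fbxl18, with 5.54 and 4.93.

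Most members lay between protein-coding genes, which the rule largely sets, since lincRNA is by definition an intergenic type and starts near protein-coding ones were left out. Of the members, 46 of 293 summits, 15.7% (12.0% to 20.3%), lay inside such a gene, beside 51.5% of summits at protein-coding starts, 55.1% of distal summits and 52.0% of all. In 38 of the 46 the lncRNA ran opposite to the host, as Kcnq1ot1 does in Kcnq1, and in 8 it ran the same way, over 42 host genes in all. The nearest protein-coding start was a median of 17.7 kb away, with 48 members within 5 kb, 55 over 50 kb and 18 over 100 kb. Members over 50 kb away were CpG-rich in 34.5% and held GATA motifs in 29.1%, against 35.7% and 26.1% of the nearer ones, so neither share moved with distance beyond its interval. The reference marks as repeat the summit base of 19 members, 6.48%, and of 5.76% of all shared intervals.

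Of the 67 genes of a list of erythroid regulators, membrane proteins, haem enzymes and cell cycle genes, 6 had a member within 50 kb of a start. These 6 members were 2.05% of all members (0.942% to 4.39%), against 1.99% of intervals at protein-coding starts and 3.27% of distal intervals. Both of these shares lie within the interval of the members. Gm40608, 28.2 kb from Myb, which encodes a transcription factor of progenitors, had 9.53-fold in replicate 1 and 11.1-fold in replicate 2. Next came 4930553P18Rik, 24.2 kb from the membrane skeleton gene Add2, with 9.39 and 10.1. The other 4 lay under percentile 20 in both lists. Gm26664, 36.4 kb from Lyl1, had 5.24 and 4.85, Gm15816, inside Ank1 and 9.67 kb from its nearest start, had 4.84 and 4.72, Lockd, 8.28 kb from the cell cycle inhibitor gene Cdkn1b, had 4.51 and 4.77, and Zfp469, 12.5 kb from Zfpm1, the gene of the GATA1 partner FOG1, had 3.54 and 4.19. No GATA motif lay within 75 bp of any of these 6 summits, beside 26.6% of all members and 27.0% of all shared intervals. With 6 summits this count does not set them apart. RefSeq calls Zfp469 a protein-coding gene.

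The 6 Snhg genes among the members that were on a list of known lncRNAs, which host small nucleolar RNAs, all lay above percentile 50 of both lists. Snhg15 stood highest of them, at percentiles 95.7 in replicate 1 and 93.4 in replicate 2. Snhg12 had 12.8-fold in replicate 1 and 12.9-fold in replicate 2, Snhg6 10.4 and 12.3, Snhg5 9.28 and 9.24, Snhg17 8.48 and 9.23, and Snhg8 9.14 and 8.38. All 6 were CpG-rich, beside 35.5% of all members and 47.6% of all shared intervals. Snhg12 held the single GATA motif among them, where 26.6% of all members and 27.0% of all shared intervals held one. Under percentile 50 stood 47.4% of all members in replicate 1 and 43.0% in replicate 2. The shares of all shared intervals there were 46.6% and 43.4%. Host genes of microRNAs ranged widely. Mir670hg, named after its value was seen, stood at percentiles 92.8 in replicate 1 and 95.6 in replicate 2. This was at a start 86003 bp from the outermost 5′ end of the gene. Mir17hg, the source of the miR-17-92 cluster, had 7.59-fold and 9.02-fold with a summit 607 bp upstream of the start, Dleu2, host of miR-15a and miR-16-1, had 5.51 and 5.70 at chr14:61681350-61681876 and 6.40 and 6.76 at an interval shared with Gm27017, and Mir142hg had 4.92 and 4.88.

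Other well-studied members spanned the whole scale. 5430416N02Rik had 14.3-fold in replicate 1 and 13.5-fold in replicate 2. Kcnq1ot1, the imprinted transcript that silences neighbouring genes on the paternal allele, had 12.6 and 12.8 at chr7:143295944-143297009. Values were 9.62 and 10.5 at 1700020I14Rik, 10.5 and 8.91 at 2900097C17Rik, and 6.72 and 6.32 at Pvt1, 50.6 kb from Myc. Malat1, an abundant nuclear lncRNA, had 4.12 and 4.15 at an interval with 4 summits, the strongest 905 bp upstream of a start. Neat1, the scaffold of paraspeckles, was reached by the lowest member of all, at 2.48 and 2.36. Lockd, whose locus is known for an enhancer of Cdkn1b in erythroid cells, lay at percentiles 9.26 and 12.0. Of the 19 intervals of 18 listed lncRNAs, 17 were CpG-rich, beside 35.5% of all members and 47.6% of all shared intervals. A GATA motif was held by 2, beside 26.6% of all members and 27.0% of all shared intervals. In replicate 1, 8 stood under percentile 50, beside 47.4% of all members and 46.6% of all shared intervals. In both lists 7 did so. Abundance of an RNA was not measured here.

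Many known lncRNAs were not among the members. The list held 76 symbols, of which 13 were not in the annotation under that name. A gene annotated under another symbol could be among these 13. Some of the 13 could thus be members under that symbol, and the 76 symbols need not be 76 different genes. A further 3 were of another gene type and 4 were on chromosome X. Of the rest, 25 had a standalone start with no shared summit within 1 kb of any start, among them H19 and Meg3, both imprinted, Hotair, Airn and Mir155hg. Bloodlinc, named for a role in red cell differentiation, was in the less strict list of replicate 2 alone, and Snhg20 and Nespas were in the less strict list of each replicate. A further 5, Gas5, Crnde, Snhg1, Tug1 and Ttc39aos1, were open at a start within 2 kb of a protein-coding start, and 6, such as Zfas1 and Snhg3, had starts of that kind alone and were open. The last 2, Hotairm1 and Snhg18, had starts of that kind alone and were not open.

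Listed genes with 2 intervals show how much neighbouring summits differed. At Gm10371 the interval nearest the start had 11.0-fold in replicate 1 and 10.4-fold in replicate 2 with 2 GATA motifs, against 3.86 and 4.44 at the interval whose summit lay 758 bp downstream. On chromosome 18, AC124466.1 showed the opposite order. Its interval 700 bp downstream of the start held 3 GATA motifs and stood at percentiles 86.8 in replicate 1 and 88.7 in replicate 2, against 23.4 and 16.5 with no GATA motif at the start itself. Also on chromosome 18, Epb41l4aos had 11.9-fold and 13.1-fold, and Redrum, a lncRNA known from red cell development and chosen after its value was seen, had 7.63-fold and 6.60-fold with 1 GATA motif, 473 kb from the nearest protein-coding start. Scarletltr, like Redrum looked up outside the list of known lncRNAs, had a standalone start but was not open. It was in the less strict list of neither replicate.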

How the data were processed

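Peak lists of ATAC-seq on 2 erythroblast replicates of 1 group were used. The authors deposited, for each summit, an enrichment as a fold over background and a significance as −log10 p, both from their peak caller. Lists are named per the file listings as thresholded on the irreproducible discovery rate or, less strict, as pseudoreplicated. Positions are those of mm10, as the labels state, counted from 1. The sources used here do not name the peak caller, the aligner or their settings.

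Lines of 1 interval were joined and the summit with the highest fold was kept. Overlap of 1 bp made an interval shared. Start sites came from GENCODE M21 and sequence from RefSeq's GRCm38.p6. Motifs were searched with Python 3.11.15 scripts, tested on simulated sequences. Shares carry 95% Wilson intervals, which cover counting error only. With 1 group no test between conditions exists, and intervals of 1 library are not replicates of a condition.

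Named members were the 10 highest and 5 lowest by mean percentile, the 5 widest, the 5 with the largest percentile difference, the 5 with most GATA motifs, those next to the distance limits, those within 50 kb of a listed erythroid gene and those on a list of known lncRNAs. Members and lists were chosen with earlier results of these data known. The alternatives tried are those of the closing section. Ranked, replicated and joint pseudoreplicated lists were not used.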

Additional observations from a re-analysis of the deposited data

Results flagged for a closer look

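Chromosomes X and Y were outside the member rule, and 10 shared intervals there met its position limits, all on chromosome X. Ftx had 2 of them, with 13.1-fold in replicate 1 and 13.0-fold in replicate 2 at the start and 7.70 and 8.90 at the other, and Jpx had 8.96 and 11.4. 5530601H04Rik had 13.7 and 11.2, Gm6787 12.4 and 12.8, and 5730405O15Rik 10.7 and 13.2. Jpx and Ftx are neighbours of Xist, which was not open in these male cells, and neither was Firre. No control samples exist to set these intervals against.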

How the results depend on the processing

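Across 17 alternatives and 10 results, 105 of 137 values stayed within a limit and 32 moved past it; the cause was not tested. The limit was a factor of 1.5 for the number of members, the spread between replicates for medians and the counting interval for shares. The number of members was 503 from the less strict lists and 187 with lincRNA alone. The share of shared intervals was 1.45% with a start window of 500 bp, 1.55% over 5 kb from protein-coding starts and 1.18% with lincRNA alone. Median enrichment in replicate 1 was 8.29 with 500 bp, 7.67 over 1 kb and 8.28 over 5 kb from protein-coding starts and 6.20 from the less strict lists, and leaving out a replicate gave 7.44 to 7.67. Median width was 660 bp with 500 bp, 618 bp over 1 kb, 639 bp over 5 kb, 634 bp with overlap by at least 50% of both intervals, 621 bp with summits within 100 bp, 453 bp from the less strict lists, 623 bp with lincRNA alone and 634 bp with outermost 5′ ends, and 560 to 605 bp without a replicate. Among alternatives added after seeing the data, it was 638 bp without members near a RefSeq mRNA start. It was 621 bp without the 11 members that aligned with another member over 200 bp or more. The GATA share was 37.9% within 150 bp and 10.2% for AGATAA alone. The CpG-rich share was 41.5% with 500 bp and 27.8% from the less strict lists. Open standalone genes were 3.26% with 500 bp and 6.36% from the less strict lists, and 4.34% to 4.60% without a replicate. Members inside protein-coding genes were 5.35% with lincRNA alone, and 84.7% of intervals were found in the other replicate from the side of replicate 2. No paired analysis was possible because there is 1 group. Depth is unknown, so the number of weak members that a deeper library would add cannot be given.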
